A study of Homo sapiens with 96 samples.

Results

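The genes described here were 43 genes of DNA replication and S phase, listed by name: the origin recognition complex, the licensing factors, the replicative helicase and its activators, the polymerases, the clamp and its loader, and the enzymes and factors that accompany them. All 43 were found among the 58521 gene symbols listed. The series read RNA by SMART-seq2 in 96 wells of 1 plate, labelled as single cells of HUES64, an established human embryonic stem cell line with an inducible DNMT1 KO (DNMT1 copies methylation onto newly made DNA) at day 0. With identical labels in all wells there was 1 group, and the design text presents the plate as a technical trial of reading methylation and RNA from the same cell. The doxycycline labels conflict, since every description has dox+ and every induction field has No. Separate cultures or clones are not named, so the libraries count as 1 sample, no test was made, and every SD below is the spread between wells.

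Levels were taken over the 84 libraries that had at least 100000 gene reads, at least 2000 genes read and at least 1% of gene reads from mitochondrially encoded genes. These 84 libraries had 118549 to 1877837 gene reads (median 768161) and 7986 to 19336 genes with a read (median 14046). Levels are counts scaled to 1000000 gene reads per library (CPM), and 3 reads corresponded to 1.60 to 25.3 CPM depending on the library. Levels per kb divide by all annotated exon bases of a gene, joined over its transcripts. Orders of genes per length therefore depend on that annotation, and which transcripts were present was not tested. The other wells were 3 near-empty ones and 9 with under 1% mitochondrial reads, and the pooled reads of those 9 are given below as a comparison level. DNMT1 averaged 29.4 ± 46.95 CPM (SD, n = 84; median 5.41) and had a read in 75 libraries. The 9 stem cell markers all averaged 10 CPM or more, DPPA4 574 and POU5F1 448 CPM. Of the markers of other lineages, 3 of 4 neural, 3 of 3 primitive streak, 0 of 3 endoderm, 1 of 3 trophoblast and amnion and 1 of 4 fibroblast genes also reached that mean. The summed level ran from 8.04 to 1329 CPM for the neural list, 0 to 493 for primitive streak, 0 to 259 for endoderm, 0 to 203 for trophoblast and amnion and 0 to 802 for fibroblast. No marker was at 0 in every library, and SOX17, KRT7, LUM and DCN had a median of 0. PAX6, the highest of these markers, averaged 148 CPM in the 84 libraries, against 1044 CPM in the pool of those 9 wells. A set of 13 libraries stood apart by having under 100 CPM of GAPDH, a level chosen after the values were seen, and results that rest on them are given with and without them. In plate columns 1 and 12, 16 wells have a table named after the opposite column; the titles were followed, and wells of these columns named below, such as C12, carry that doubt.

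Before a cell copies its genome, the origin recognition complex marks start sites, and CDC6 and CDT1 load the ring-shaped MCM helicase onto them in an inactive form. In S phase CDC45 and the GINS proteins join the ring and start it, polymerase alpha lays down primers, polymerases epsilon and delta extend the leading and lagging strands on the PCNA clamp, and geminin (GMNN) holds CDT1 back so that no origin is licensed again. Many of these genes are switched on together at the end of G1 by E2F transcription factors. Human embryonic stem cells pass through a short G1 phase and spend a large share of their cycle in S phase.

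The promoters of many members shared the kind of word that E2F factors are known to bind. RefSeq promoter windows (GRCh38.p14, 250 bases before to 50 after the start) were matched for 39 of the 43 members, and 18 of these, 46.2%, held at least 1 of the words TTTGGCGC, TTTCCCGC, TTTCGCGC and TTTGCCGC on either strand, against 3.33% of all 27305 promoters. The word CCAAT, also read on both strands, stood in 24 of the 39 (61.5%), against 35.7% of all promoters. The word TTTGAA, read in the same way and known from genes of G2 and mitosis, stood in 1 of the 39 (2.56%), against 15.4% of all. Shown here are the 200 bases before the start of 6 members the results turn on, all of which hold an E2F word. Bases run 5' to 3' on the gene's strand, with the E2F words of either strand in capitals. The windows are MCM6 at chr2:135876444-135876643 (minus), MCM7 at chr7:100101398-100101597 (minus), PCNA at chr20:5126623-5126822 (minus), DTL at chr1:212035548-212035747 (plus), POLE at chr12:132687343-132687542 (minus) and E2F1 at chr20:33686386-33686585 (minus).
MCM6: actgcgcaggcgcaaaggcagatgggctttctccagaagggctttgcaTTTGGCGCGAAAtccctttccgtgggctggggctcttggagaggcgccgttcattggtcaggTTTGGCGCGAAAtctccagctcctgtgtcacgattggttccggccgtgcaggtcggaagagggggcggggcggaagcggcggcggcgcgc
MCM7: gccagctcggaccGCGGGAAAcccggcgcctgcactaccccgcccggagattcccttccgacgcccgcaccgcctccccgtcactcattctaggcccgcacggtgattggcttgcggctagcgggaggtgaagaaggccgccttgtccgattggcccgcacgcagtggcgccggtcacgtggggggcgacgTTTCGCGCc
PCNA: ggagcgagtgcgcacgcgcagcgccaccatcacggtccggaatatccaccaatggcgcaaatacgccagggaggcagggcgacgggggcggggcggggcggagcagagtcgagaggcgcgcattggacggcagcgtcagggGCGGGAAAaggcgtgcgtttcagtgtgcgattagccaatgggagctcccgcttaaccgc
DTL: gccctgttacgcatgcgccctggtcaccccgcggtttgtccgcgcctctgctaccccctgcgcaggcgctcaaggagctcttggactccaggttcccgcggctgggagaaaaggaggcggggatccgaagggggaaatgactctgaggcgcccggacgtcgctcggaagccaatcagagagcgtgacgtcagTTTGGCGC
POLE: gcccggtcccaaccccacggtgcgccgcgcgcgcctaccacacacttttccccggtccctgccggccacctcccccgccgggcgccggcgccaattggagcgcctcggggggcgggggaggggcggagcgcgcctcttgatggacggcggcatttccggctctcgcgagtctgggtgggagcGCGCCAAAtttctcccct
E2F1: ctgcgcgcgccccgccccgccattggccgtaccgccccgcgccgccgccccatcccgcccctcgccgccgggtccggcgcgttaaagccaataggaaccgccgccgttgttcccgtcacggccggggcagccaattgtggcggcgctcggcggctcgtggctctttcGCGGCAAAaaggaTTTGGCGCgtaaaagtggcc
In MCM6 the word TTTGGCGC overlaps GCGCGAAA, which is TTTCGCGC on the other strand, and this overlap occurs at 2 places, so its 4 words fill 2 stretches. MCM7, PCNA and DTL are among the members that followed the others most closely across libraries. POLE and E2F1 had the 2 lowest rho with the others, -0.593 and -0.260, so a word was present on both sides. With ranks adjusted for gene reads and genes detected, these became -0.305 and -0.0317. CDT1 (-0.210) and LIG1 (-0.0494) then lay below E2F1. RFC1, UNG and MCM10, also among the closest followers, are not shown and held no word. Members with a word had a median Spearman rho of 0.385 with the score of the other members (n = 17), and members without one had 0.434 (n = 21). Their median levels were 19.3 and 17.8 CPM per kb of exon. A match in letters is a description and does not show that a factor was bound.

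Most of the replication machinery was represented in these cells, but only 1 member was seen in every library. The mean level reached 10 CPM for 40 of the 43 members, where 15.4% of all genes listed did so and 66.1% of the genes read in at least 50% of the libraries. At least 50% of the libraries held a read of 42 members, against 21.2% of all genes listed, and only POLE had a read in all 84. Judged by the median in place of the mean, 26 members reached 10 CPM, so for 14 of the 40 fewer than 50% of the libraries reached that level. The members below a mean of 10 CPM were GINS3, POLD1 and E2F1. The median of the members' means was 68.8 CPM, and the median over all genes read in at least 50% of the libraries was 21.3 CPM. A library held reads of 17 to 43 members (median 35.5), and of 7 to 39 (median 28.5) after thinning to 100000 gene reads.

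**Figure D1:**
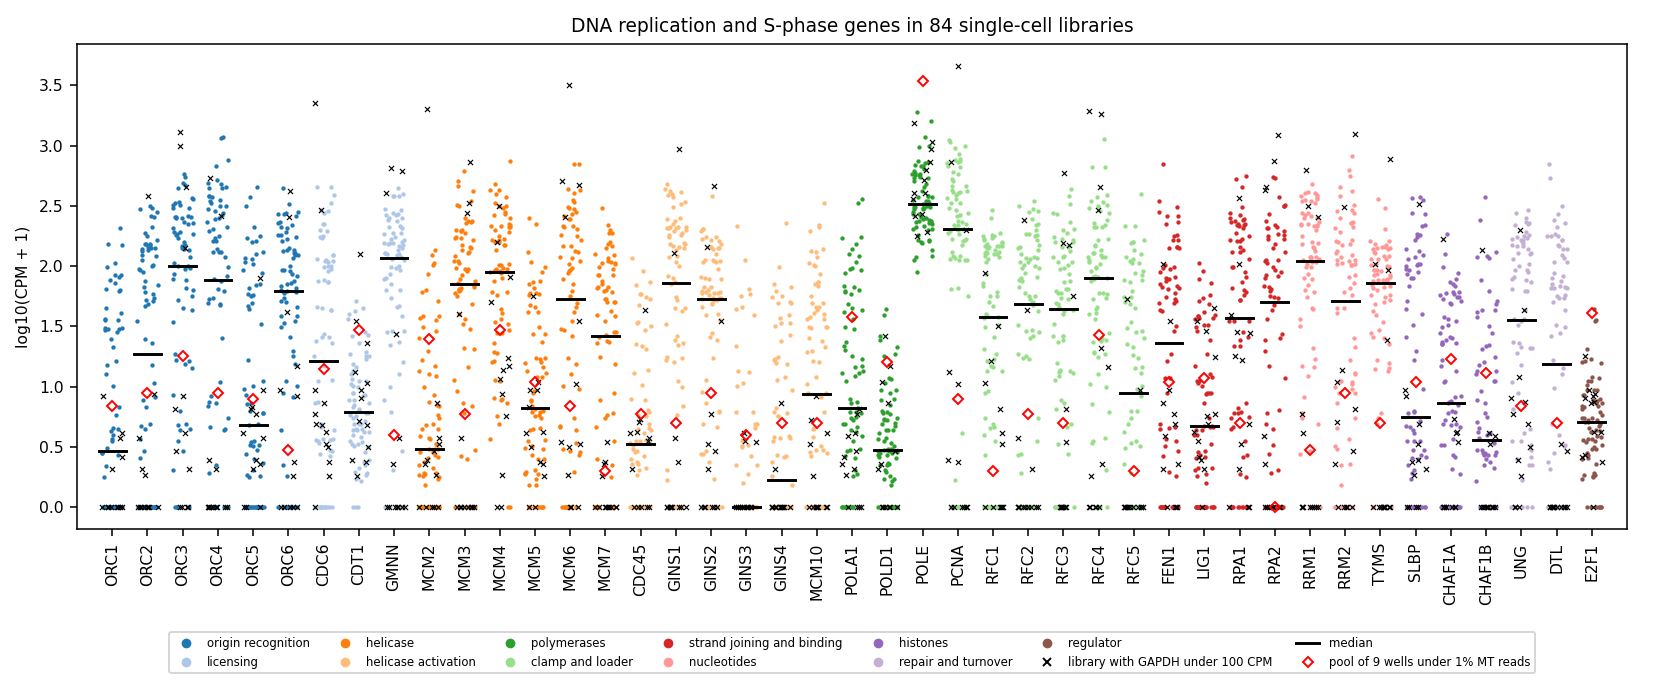
Level of each of the 43 members in each of the 84 libraries, as log10(CPM + 1), 1 point per library, coloured by role; crosses are the 13 libraries with GAPDH under 100 CPM, black bars are medians and red diamonds are the pool of 9 wells with under 1% mitochondrial reads. Most members spread from 0 upwards, POLE never falls below 88.4 CPM, and single crosses stand far above the rest for PCNA, MCM2, MCM6 and CDC6.

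All 6 subunits of the origin recognition complex reached a mean of 10 CPM. ORC3 was the highest of them per length, at 44.3 CPM per kb; its level ran from 0 to 1285 CPM with a median of 98.9 and a mean of 163 ± 214 CPM, and 74 libraries had a read. ORC4 averaged 175 ± 237 CPM (median 75.6, 64 libraries with a read) and ORC6, the smallest subunit, 93.2 ± 102 CPM (median 60.6, 71 libraries). For these subunits more than 50% of the libraries held the transcript at 10 CPM. ORC2 averaged 69.2 ± 91.5 CPM (median 18.02, 57 libraries) and ORC5 43.3 ± 82.8 CPM (median 3.82, 61 libraries). ORC1 is the subunit whose protein is known to be removed in S phase in human cells. It ran from 0 to 208 CPM with a median of 1.95 and a mean of 21.4 ± 39.04 CPM, had a read in 49 libraries and reached 10 CPM in 29. Per length ORC1 stood at 6.78 CPM per kb, below the other 5 subunits, which lay between 11.6 and 44.3, although its spread overlapped theirs.

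The licensing factors differed in how they were spread over the cells. GMNN, the inhibitor of CDT1, ran from 0 to 647 CPM with a median of 116 and a mean of 137 ± 139 CPM; 73 libraries had a read and 66 reached 10 CPM. CDT1, the loader that geminin binds, ran from 0 to 125 CPM with a median of 5.19 and a mean of 10.8 ± 16.7 CPM. It had a read in 81 libraries but reached 10 CPM in 25. CDC6, the other loader, ran from 0 to 2257 CPM with a median of 15.3 and a mean of 99.8 ± 262 CPM, with a read in 70 libraries. Its highest library, well F2, held 26.9% of the summed level, and the mean without it was 73.8 CPM. CDT1 and GMNN together reached 10 CPM in 19 libraries, CDT1 alone in 6, GMNN alone in 47 and neither in 12. For CDT1 that cut lies below its level in the pool of 9 wells, 28.7 CPM. In the libraries with the fewest gene reads it is also less than 3 reads. These counts therefore do not separate cells with and without CDT1 transcript. Their Spearman rho over the 84 libraries was -0.117 (-0.106 without the highest library of either), the reverse sign of most pairs of members, and small.

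The MCM2 to MCM7 subunits form 1 ring with 1 copy of each, yet their transcripts differed in level. Per length, MCM6 stood at 38.6, MCM3 at 32.7, MCM4 at 18.3, MCM7 at 11.4, MCM2 at 7.61 and MCM5 at 3.28 CPM per kb (means over 84 libraries). By the median the order changed at both ends. It was MCM3 19.1, MCM4 12.7, MCM6 12.6, MCM7 5.79, MCM5 0.776 and MCM2 0.414 CPM per kb. MCM6 ran from 0 to 3187 CPM with a median of 52.05 and a mean of 159 ± 371 CPM, and 70 libraries had a read. Well A5, low in GAPDH, held 23.9% of its summed level, and the mean without A5 was 122 CPM. MCM3 averaged 119 ± 144 CPM (median 69.8, 70 libraries with a read) and MCM4 127 ± 139 CPM (median 88.8, 80 libraries). MCM7 averaged 49.996 ± 62.5 CPM (median 25.4, 62 libraries) and MCM5 24.1 ± 43.4 CPM (median 5.69, 74 libraries). Neighbours in either order overlapped widely between libraries, and both orders depend on the annotated exon length. MCM2 was a case of its own: it ran from 0 to 1991 CPM with a median of 2.03 and a mean of 37.3 ± 218 CPM, with a read in 63 libraries. Well C12 alone held 63.5% of its summed level; the next highest library, H11, had 136 CPM, and the mean without C12 was 13.8 CPM. Every subunit had a read in 35 of the 84 libraries and every subunit reached 10 CPM in 11, while 3 libraries had no subunit at 10 CPM. The summed level of the 6 subunits ran from 1.94 to 3977 CPM, with a median of 420 CPM.

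The factors that turn the loaded ring into a moving helicase were led per length by GINS1. It ran from 0 to 939 CPM with a median of 71.5 and a mean of 125 ± 157 CPM (65 libraries with a read, 30.6 CPM per kb). GINS2 averaged 67.5 ± 80.8 CPM (median 51.8, 71 libraries, 20.7 CPM per kb). Their partners in the same complex of 4 proteins were lower per length, at 2.51 CPM per kb for GINS4 and 1.72 for GINS3. GINS4 averaged 13.8 ± 30.97 CPM (median 0.669, 43 libraries) and GINS3 8.79 ± 28.6 CPM (median 0, 31 libraries). In GINS3 a single well, B1, held 28.9% of the summed level, and without it the mean was 6.33 CPM. MCM10, which helps to activate the helicase, averaged 35.4 ± 59.05 CPM (median 7.64, 59 libraries), and CDC45, which binds the ring together with GINS, 11.7 ± 22.6 CPM (median 2.35, 55 libraries).

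Among the catalytic subunits of the polymerases, POLE, of polymerase epsilon, stood apart as the member with no library at 0. It ran from 88.4 to 1912 CPM with a median of 329 and a mean of 445 ± 336 CPM, was read in all 84 libraries and reached 100 CPM in 83. POLA1, of polymerase alpha, averaged 35.6 ± 65.1 CPM (median 5.60, 72 libraries with a read), and POLD1, of polymerase delta, 5.12 ± 8.02 CPM (median 1.999, 67 libraries). Per length the means were 26.8, 5.62 and 1.04 CPM per kb for POLE, POLA1 and POLD1. POLE lies at chr12:132623753-132687365 on the minus strand (GRCh38, GENCODE 29), and no exon of another gene in that release overlaps its exons. Counted for each strand separately, POLE had 25150 reads in place of 22966, and the annotation used for counting is not known. Its level is taken up again below, because it was higher still in the wells with few mitochondrial reads.

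PCNA, the sliding clamp, was the most abundant member per length, at 228 CPM per kb, and lies at chr20:5114953-5126626 on the minus strand. It ran from 0 to 4574 CPM with a median of 201 and a mean of 335 ± 549 CPM. A read was found in 69 libraries and 60 reached 100 CPM, while 15 had none, so few libraries lay in between. The PCNA median was 1.36 CPM in the 13 libraries low in GAPDH and 221 CPM in the other 71. Its highest value again came from well C12, the next highest library, G12, had 1112 CPM, and the mean without C12 was 284 ± 288 CPM. Of the loader subunits that open and close the clamp, RFC4 was the highest, at 57.6 CPM per kb. RFC4 ran from 0 to 1923 CPM with a median of 79.3 and a mean of 173 ± 321 CPM, with a read in 77 libraries, and its top values were in the neighbouring wells F3 (1923 CPM) and F2 (1815 CPM). The other loader subunits were more even. RFC1, the large subunit, averaged 67.1 ± 71.2 CPM (median 36.6, 69 libraries with a read), RFC2 76.9 ± 89.1 CPM (median 47.4, 62 libraries) and RFC3 80.3 ± 107 CPM (median 43.4, 68 libraries). RFC5 averaged 40.9 ± 66.2 CPM (median 7.93, 54 libraries).

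RPA2, part of the complex that coats single-stranded DNA, led its group at 57.3 CPM per kb. It ran from 0 to 1211 CPM with a median of 49.9 and a mean of 116 ± 189.9 CPM, and 61 libraries had a read. RPA1, the large subunit of that complex, averaged 97.7 ± 124 CPM (median 36.3, 71 libraries). FEN1, the nuclease that trims the flaps of lagging-strand fragments, averaged 67.7 ± 108 CPM (median 22.7, 65 libraries), and LIG1, the ligase that joins the fragments, 15.2 ± 22.3 CPM (median 3.73, 66 libraries). The suppliers of nucleotides were each read in 70 or more libraries. RRM1, the large subunit of ribonucleotide reductase, ran from 0 to 624 CPM with a median of 109.7 and a mean of 144 ± 143 CPM (71 libraries, 34.4 CPM per kb). RRM2, its small subunit, averaged 124 ± 198 CPM (median 50.5, 73 libraries), and TYMS, thymidylate synthase, 80.6 ± 100.3 CPM (median 70.99, 70 libraries).

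Several members overlap genes on the other strand, and reads in the shared stretches fall to neither gene in the column used here. In TYMS 46.6% of the exon bases are shared, mainly with ENOSF1 (30.3 CPM), and the sum of the columns that count each strand separately gave it 2.86 times as many reads and a mean of 214 CPM in place of 80.6. GINS4 had 2.22 times and RFC5, which meets WSB2 (38.4 CPM), 1.64 times as many reads in that sum. Their levels above are therefore low readings of uncertain size, since the libraries carry no strand information. The forward strand took a median of 49.6% of stranded reads. Annotated pseudogenes of members drew few reads, with PCNAP1 at 1.96 and RFC5P1 at 2.98 CPM on average.

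The remaining members act on histones, repair and protein turnover. SLBP, which binds the stem-loop of the replication-dependent histone messages, ran from 0 to 371 CPM with a median of 4.58 and a mean of 61.8 ± 95.2 CPM, with a read in 66 libraries. CHAF1A and CHAF1B, subunits of the chromatin assembly factor that places new histones behind the fork, averaged 24.6 ± 36.1 CPM (median 6.37, 63 libraries) and 23.1 ± 55.6 CPM (median 2.58, 57 libraries). UNG, which removes uracil from DNA, ran from 0 to 289 CPM with a median of 34.5 and a mean of 72.5 ± 81.2 CPM (73 libraries). DTL, which marks CDT1 for destruction on replicating chromatin, averaged 68.8 ± 115 CPM (median 14.5, 54 libraries). E2F1, 1 of the factors that drive this programme, was low throughout. It ran from 0 to 42.96 CPM with a median of 4.10 and a mean of 6.09 ± 7.42 CPM, and 76 libraries had a read but only 13 reached 10 CPM.

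Set against the wells with few mitochondrial reads, 21 members stood well above the comparison level and 5 lay below it. The 9 wells held 1009550 gene reads in all, and 35 members had more than 3 reads there. Of these 35, 21 had a mean over 5 times the pooled level, where 23.2% of the genes passing the same filters did so. PCNA averaged 335 CPM in the 84 libraries, against 6.93 CPM in the pool, 48.4 times as much. GINS1 stood at 125 against 3.96 CPM (31.5 times), MCM6 at 159 against 5.94 CPM (26.7 times) and RPA1 at 97.7 against 3.96 CPM (24.7 times). RPA2 had no read in the pool. These contrasts rest on few pool reads, 7 for PCNA and 4 for GINS1. Without the 13 libraries low in GAPDH the count was again 21, and without F9 and G3, the pooled wells with the largest share of reads in genes, it was 23.

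The 5 members below the pool were POLE, E2F1, CDT1, POLD1 and POLA1, where 52.9% of the genes passing the same filters lay below it. E2F1 averaged 6.09 CPM in the 84 libraries and 39.6 CPM in the pool. CDT1 averaged 10.8 CPM in the 84 libraries against 28.7 CPM in the pool, and POLD1 5.12 against 14.9 CPM. POLA1 lay level with it, at 35.6 against 36.7 CPM. POLE averaged 445 CPM in the 84 libraries, against 3416 CPM in the pool, or 0.130 times as much. MCM2 was only 1.57 times the pooled level, at 37.3 against 23.8 CPM, and without well C12 it lay below, at 13.8 CPM.

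**Figure D2:**
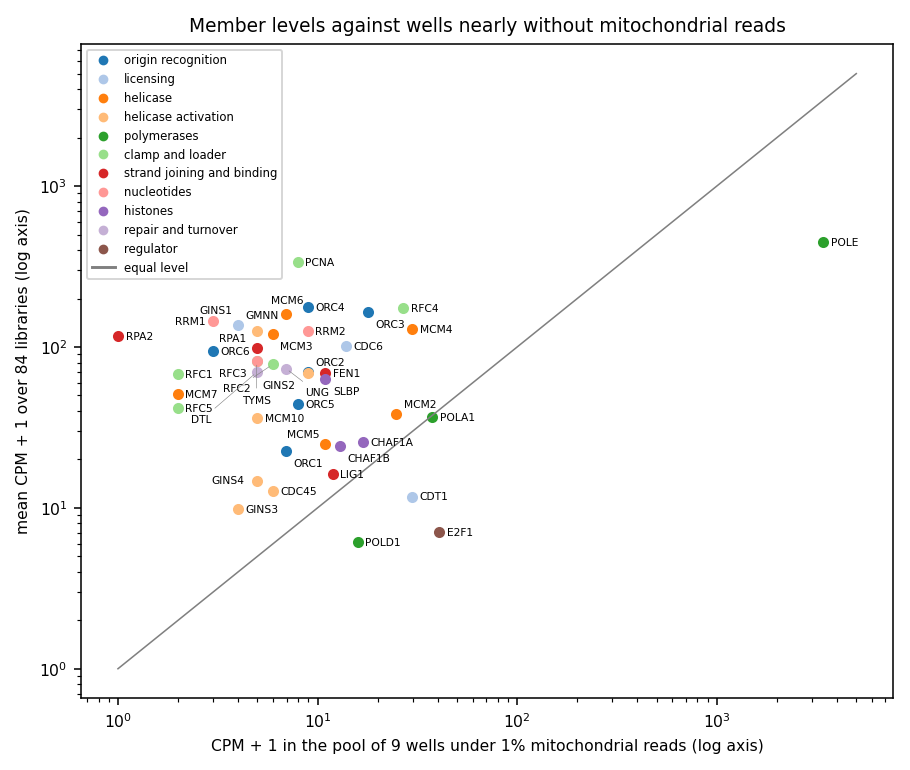
Mean CPM + 1 of each member over the 84 libraries (vertical, log axis) against CPM + 1 in the pool of 9 wells with under 1% mitochondrial reads (horizontal, log axis); the line marks equal levels. PCNA lies far above the line at 335 against 6.93 CPM, and POLE far below it at 445 against 3416 CPM, with E2F1, CDT1 and POLD1 also below.

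The level of POLE followed how little of a library fell into genes. Its Spearman rho over the 84 libraries was -0.914 with the share of all reads that fell into genes and -0.770 with the number of gene reads. Gene reads are also the divisor of CPM, so both measures share a term with the POLE level. E10, the library with the highest POLE level of 1912 CPM, had the lowest share of reads in genes, 2.38%. Counted per 1000000 of all reads instead, POLE lay between 23.5 and 91.1 in the 84 libraries (median 40.6) and between 42.1 and 65.9 in the 9 wells (median 46.4), so the ranges overlapped and the large difference in CPM was not there. The 9 wells had 1850 to 6010 CPM of POLE. On the same scale E2F1 had a median of 0.429 in the 84 libraries and 0.390 in the 9 wells, POLA1 0.710 and 0.540, CDT1 0.681 and 0.277, and POLD1 0.259 and 0.123. PCNA differed, with a median of 25.5 in the 84 libraries and 0 in the 9 wells. With the share of reads in genes, E2F1 had a rho of -0.434, the next lowest after POLE, and PCNA 0.382. What the POLE reads represent was not tested.

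**Figure D3:**
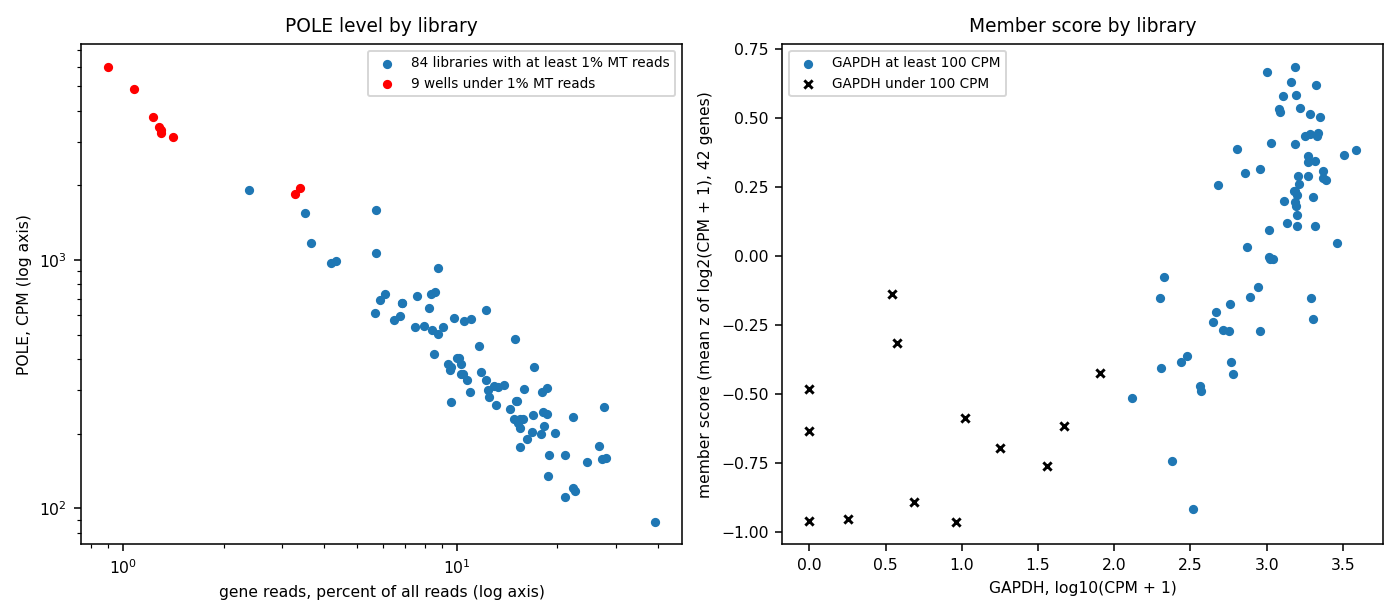
Left, POLE level in CPM against the percent of all reads that fell into genes, both on log axes, for the 84 libraries (blue) and the 9 wells with under 1% mitochondrial reads (red); the points form 1 falling band with rho -0.914 among the 84. Right, the member score of each of the 84 libraries against GAPDH as log10(CPM + 1); the 13 libraries with GAPDH under 100 CPM (crosses) have a median score of -0.635 and the other 71 a median of 0.212.

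Across libraries the members moved together weakly, with a median correlation above that over all genes. Over the 861 pairs of the 42 members with a read in at least 50% of the libraries, the median Spearman rho was 0.176 and 82.4% of pairs lay above 0. Over all pairs of the 12387 genes passing the same filter the median was 0.0579, with 63.01% above 0. This background was not matched for level. The median of the members' means was 68.8 CPM, against 21.3 CPM for those genes. Leaving out the highest library of either gene gave 0.191 for the members and 0.0645 for all genes. The points of each pair share 1 plate, their depth and the quality of their library, and values of this size in sparse counts are a description only. With ranks adjusted for gene reads and genes detected, the medians were 0.103 for the members and 0.0154 for all genes, and without the 13 libraries low in GAPDH they were 0.109 and 0.0299. Within plate rows A to E and H (62 libraries) they were 0.180 and 0.0600, and within rows F and G (22 libraries) 0.146 and 0.0314.

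The clamp and its loader were the role group of 3 or more genes with the highest median rho, 0.326 over 15 pairs. RFC1 with RFC3 had 0.458, PCNA with RFC3 0.416 and RFC2 with RFC5 0.4001, whereas RFC3 with RFC4 had -0.0892. The helicase activators had a median of 0.254 over 10 pairs, with GINS1 and GINS2 at 0.398, and all 10 lay above 0. The helicase ring had 0.241 over 15 pairs, all above 0, led by MCM4 with MCM7 at 0.395 and with MCM3 and MCM4 lowest at 0.105. Within rows F and G alone, MCM3 with MCM5 had -0.384, so the uniform sign did not hold in every part of the plate. The subunits of the origin recognition complex had a median of 0.160 over 15 pairs, and the licensing factors -0.0376 and the polymerases 0.0310 over 3 pairs each.

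The closest pairs joined genes of different roles, as most of the 861 pairs do, so this is not a result about roles. MCM7 with UNG had 0.525, RFC3 with RRM1 0.512, GINS1 with RFC3 0.485 and MCM4 with MCM10 0.477. POLE with E2F1 had 0.514, and both of these genes ran against the rest. The lowest pairs were ORC3 with E2F1 at -0.531 and POLE with RFC1 at -0.479. Each member was also set against the mean z-scored log2(CPM + 1) of the other members. GINS1 followed it most closely with a rho of 0.651, then RFC1 with 0.614, DTL with 0.611, UNG with 0.597, MCM7 with 0.592 and MCM10 with 0.589. At the other end LIG1 had 0.0735, CDT1 -0.124, E2F1 -0.260 and POLE -0.593. Leaving out the highest library changed these values little, to 0.695 for GINS1 and -0.583 for POLE. Adjusting ranks for gene reads and genes detected gave 0.543 for GINS1, -0.305 for POLE, -0.210 for CDT1 and -0.0317 for E2F1. E2F1 had 283 reads in all and a rho of -0.688 with the number of gene reads. With the 5 members below the pool left out, the median over pairs was 0.206.

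**Figure D4:**
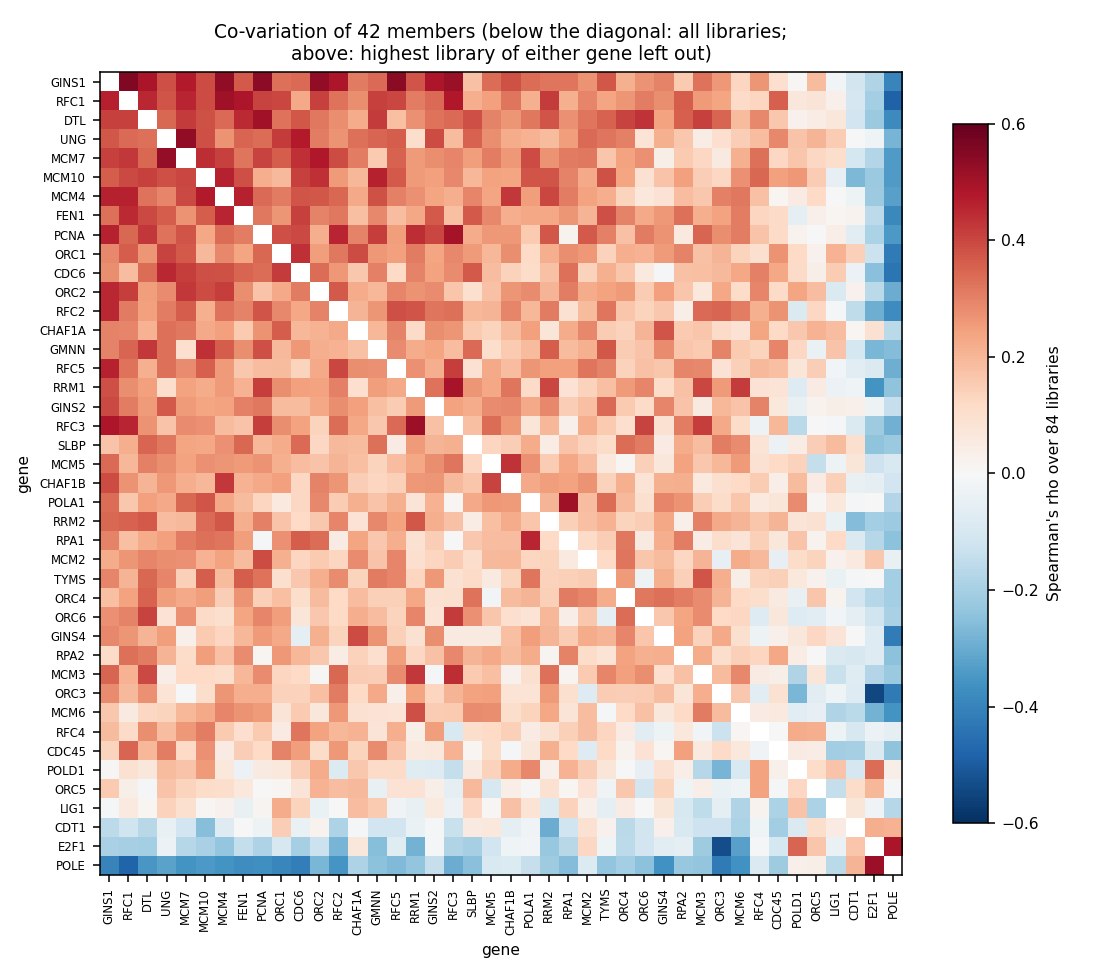
Spearman rho of each pair of the 42 members over the 84 libraries, below the diagonal with all libraries and above it with the highest library of either gene left out; genes are ordered by their rho with the score of the other members. Red (positive) fills most of the map. With all libraries, POLE, in the last row, is blue with every gene except E2F1, CDT1 and, close to 0, ORC5 and POLD1; E2F1 and CDT1 are mostly blue.

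The member score of a library, the mean z-scored log2(CPM + 1) of the 42 members, ran from -0.964 to 0.687 with a median of 0.109. It was higher in libraries with more reads and genes: its rho was 0.489 with gene reads, 0.481 with genes detected and 0.747 with GAPDH, a gene of glycolysis that is no part of replication (0.621 with ranks adjusted for gene reads and genes detected). The genes most like the score among all genes read in at least 50% of the libraries were CFL1 (0.751), EIF5A (0.751), GAPDH (0.747), HMGA1 (0.741) and HNRNPCP2 (0.724). None of these 5 is a replication gene on the lists used. The 13 libraries low in GAPDH had scores of -0.964 to -0.139 (median -0.635) and reads of 17 to 35 members (median 22). The other 71 had scores of -0.919 to 0.687 (median 0.212) and reads of 17 to 43 members (median 38). Their part in the co-variation beyond the values given here was not tested.

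Members and genes of the next phase, G2 and mitosis, were less alike across libraries than the genes within either set. With the mean z-score of 18 G2/M genes, such as TOP2A and CDK1, the members had a median rho of 0.192 and 36 of 42 lay above 0, where the median of all genes was 0.132. With ranks adjusted for gene reads and genes detected the members' median was 0.0621, and without the libraries low in GAPDH it was 0.0917. Between single genes, members with G2/M genes had a median of 0.0620 over 756 pairs, and members with all other genes had 0.0664. The G2/M genes were closer to each other, with a median of 0.329 over 153 pairs. The member score and the G2/M score had a rho of 0.413, and 0.136 after the same adjustment.

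The spread between libraries was set against other genes of the same level by the excess of log2 CV2 (squared coefficient of variation) over a loess trend. An excess of at least 1 was reached by 5 of 40 members, MCM2 (3.40), MCM6 (2.05), CDC6 (1.95), PCNA (1.70) and RFC4 (1.47), where 13% of all genes so compared reached it. The share of members was near that background, so it is not a result about replication genes. Without each gene's highest library only RFC4 passed (1.52), 1 of 39 members, against 7.39% of all genes. For RFC4 the second highest library, F2 with 1815 CPM and also low in GAPDH, was still included. In these 5 genes the highest libraries were C12 for MCM2 and PCNA, A5 for MCM6, F2 for CDC6 and F3 for RFC4, all among the 13 low in GAPDH. Those 13 libraries were the highest library of 17 of the 40 members with a mean of at least 10 CPM, where 34.4% of all genes at that level had their highest library there. In the other 71 libraries PCNA averaged 319 ± 286 CPM, MCM6 125 ± 156, RFC4 141 ± 183, CDC6 81.7 ± 112 and MCM2 15.9 ± 30.02 CPM. At least 25% of the summed level lay in 1 library for 2 members with a mean of at least 10 CPM, MCM2 and CDC6, against 10.6% of such genes.

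**Figure D5:**
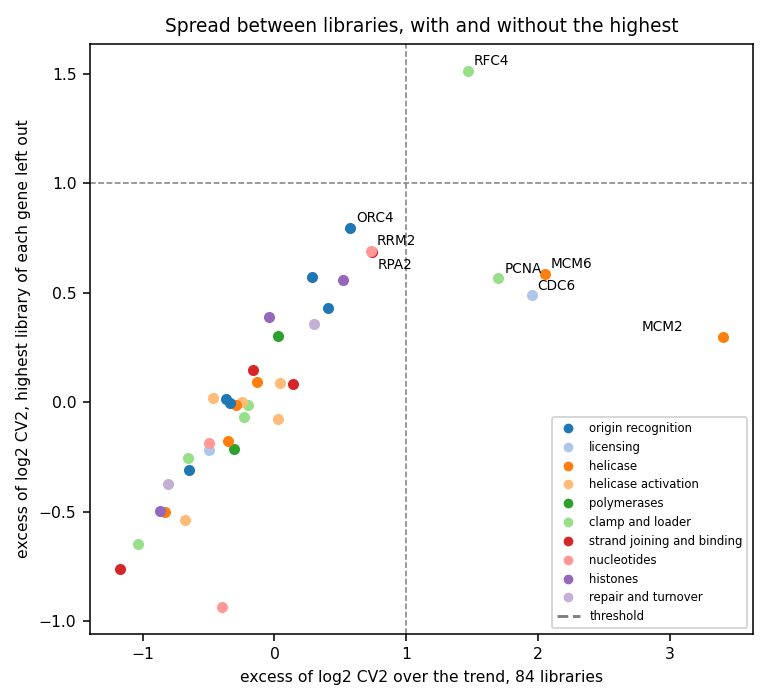
Excess of log2 CV2 over the trend for 39 members that could be placed in both calculations, with all 84 libraries (horizontal) and after leaving out the highest library of each gene (vertical); dashed lines mark the threshold of 1. MCM2, MCM6, CDC6 and PCNA lie to the right of the threshold but below it on the vertical axis, and RFC4 is past it on both.

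Other replication genes, listed from the same pathway, were also mostly read. Of 39 such genes 34 averaged 10 CPM or more and 34 were read in at least 50% of the libraries, and the median of their means was 39.003 CPM. The highest per length were RPA3, the small subunit of the complex of RPA1 and RPA2, at 66.9, CDC7, the kinase that fires licensed origins, at 26.5, HELLS, a chromatin remodeller, at 25.4, and USP1, which removes ubiquitin from PCNA, at 23.4 CPM per kb. HELLS had the smallest spread for its level of these 4, at 258 ± 179 CPM with a median of 261 CPM. Over the 561 pairs of the 34 genes the median rho was 0.139, and 0.156 without the highest library of either. An excess of log2 CV2 past the threshold was reached by 2 of the 34, and by 0 without each gene's highest library.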

How the data were processed

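The authors deposited 1 table of raw read counts per library, which lists 58521 gene symbols after 4 summary lines; of its 3 columns 1 ignores strand and the others count each strand. Per the submitters' processing notes, FastQC and STAR 2.7.3a were run, with hg38 and GRCh38.p2 named as builds. Which annotation was used is not given in the sources used here, nor are trimming and duplicate removal. Per the labels, poly(A) RNA was captured and made into libraries by SMART-seq2 and Nextera XT, without molecular identifiers, so intervals and floors cover counting error only. The counts without regard to strand were scaled to CPM over gene reads, with summary lines left out. Exon lengths and positions came from GENCODE 29 on GRCh38, which matched all 43 members and 35997 of the 58521 symbols and is not known to be the authors' annotation; promoter windows came from RefSeq (GRCh38.p14) and matched 39 members.

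The members, lists and alternatives were chosen with earlier results of these data known. Of 96 wells 84 were kept by the thresholds given with the results, no doublets were called, and no 2 libraries were identical. Spearman rho used genes read in at least 50% of the libraries. Excess variability was log2 CV2 minus its loess trend against log2 mean CPM (span 0.5), over genes averaging 10 CPM or more and read in at least 10% of the libraries; the steps were tested on simulated data. With 1 group from 1 plate there was no test and no p-value. Each member is named with its mean, median and libraries with a read; lowest and highest values are given for the highest member per kb of each role, members past the variability threshold, and CDT1, GMNN, CDC6, ORC1 and E2F1. Other genes named are the 5 most like the score, the 4 highest per kb of the outside list and genes overlapping a member; PAX6, SOX17, KRT7, LUM, DCN, DPPA4, POU5F1, TOP2A, CDK1, GAPDH, DNMT1 and the pseudogenes are beside this rule. Python 3.11.15, R 4.3.3 and edgeR 4.0.16 (TMM factors only) were used. Alternatives covered strand column, thresholds, depth, scaling, plate rows, single libraries and filters.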

Additional observations from a re-analysis of the deposited data

Results flagged for a closer look

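CDC45, which averaged 11.7 CPM and reached at most 117 CPM in the 84 libraries, had 10 reads among the 2880 gene reads of the 3 near-empty wells, which entered no comparison. The reads were 3 in A2, 4 in A7 and 3 in A9, in wells with 768, 979 and 1133 gene reads. They correspond to 3472 CPM, with an exact Poisson 95% interval of 1665 to 6386 CPM that covers counting error only. CDC45 was picked as the only member with more than 3 reads there, and the interval does not allow for that choice. Lying above the 1042 CPM that 3 reads would give was fixed by the same choice. CDC45 ranked 27 among all genes in these wells, and the reads of all members there were 7, 5 and 6. The source of these reads was not tested.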

How the results depend on the processing

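No paired analysis was possible because all libraries carried the same labels and formed 1 group. Summary results were recomputed under other settings. Counts were held to 1.5 times the main value, and other values to a spread around it. That spread was the SD over libraries, or over pairs or members for a rho. By this loose measure 104 values stayed within bounds and 6 did not, and none changed sign. Those 6 were the members past the variability threshold, 5 as reported, which became 8 with TMM factors, 3 without rows F and G, 3 without wells F2 and F3, 1 without the libraries low in GAPDH and 1 without each gene's highest library, and the members reaching 10 CPM, 40 as reported and 26 by the median. The cause was not tested. Of 473 recomputed means of single members, 19 moved by more than 1.5 times, among them MCM2 (70.98 CPM with TMM factors, 15.9 without the libraries low in GAPDH). Most of the 19 came from the setting with rows F and G only. There CDC6 (166 CPM, with well F2 included), POLA1 and E2F1 rose. The other members that moved there fell, such as RFC5 from 40.9 to 19.2 CPM and RRM2 from 124 to 70.3 CPM. Why these rows differed was not tested. The median rho of members ranged from 0.103 to 0.207 over the settings, and the members over 5 times the pool from 19 to 23. For that rho the SD over pairs was 0.176, as large as the median itself, so staying within it says little about stability. The alternatives without the libraries low in GAPDH, without the members below the pool and without 2 wells of the pool were chosen after seeing the data. Transcripts under 1.60 to 25.3 CPM, the level of 3 reads, could not be told from absent ones.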
